A study of Mus musculus with 12 samples.

Results

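Blood taken from mice before any training was profiled on 6 of the 12 arrays of the study, 3 from mice that later stayed untrained and 3 from mice that were later trained. The 6 arrays were chosen by the time point and training status in their labels, and all 27381 features of each array were used. Each array carried RNA pooled from 7 C57B16/J mice, and the labels give 16 male and 18 female mice, aged 8 to 12 weeks at surgery and kept on a reversed 12 h light and dark cycle. Those mice are fewer than 6 separate pools of 7 would need. The study's paper reports more mice than the labels and calls the pools of a condition unique and biological replicates. How mice and sexes were spread over the pools is not stated. The blood came from a nick in the bone over the fronto-nasal sinus during surgery under isoflurane, was stored in RNAlater and was depleted of globin transcripts after pooling. At this time point neither group had been restricted in water, fixed by the head or trained, so the names untrained and trained describe only what followed. Pools 1 and 2 of each group belonged to batch 1 and pool 3 to batch 2, a later repeat of the whole experiment, in which mice, time and array run changed together. Values are log2 intensities, and because a level depends on the probes of each feature, the order of features is an order of signal and not of transcript number. Every p-value below rests on the spread from pool to pool, and the number of pools limits the precision of every value. Unless stated otherwise, that spread is over all 12 arrays, those after training included.

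Blood RNA comes from reticulocytes, the young red cells that still hold RNA, from platelets, which carry transcripts of their megakaryocyte parents, and from leukocytes. Red cell precursors devote their transcripts to haem and globin synthesis, iron uptake and the membrane skeleton, while B and T lymphocytes, neutrophils and monocytes each carry surface receptors and effector proteins of their own. In a bulk sample fewer cells of a type and less RNA per cell cannot be told apart.

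The 6 arrays had medians of 1.44 to 1.49 and highest values of 13.32 to 13.33 in batch 1 and 13.05 in batch 2. The median of the feature means was 1.46, the 75th percentile 2.35, the 90th 3.71 and the 99th 7.16. Any pair of arrays correlated across features at a Pearson r of 0.9716 to 0.9781, given as a description, since features are not independent replicates.

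Among the 30 features with a symbol and the highest mean, 24 were protein coding, 7 belonged to the list of erythroid genes and 1 to the list of platelet genes. The highest of all was Rn18s-rs5, annotated as a pseudogene of 18S ribosomal RNA, at 13.24 ± 0.14 (SD, n = 6 pools), followed by Pabpc1, which binds the poly(A) tail of messenger RNA, at 12.91 ± 0.10. Alas2, which catalyses the first step of haem synthesis in red cell precursors, gave 12.74, 12.72 and 12.48 in untrained pools 1 to 3 and 12.66, 12.64 and 12.45 in trained pools 1 to 3. The untrained and trained pools overlapped, and pool 3 of both groups was the lowest. Next came the nuclear RNA Rn7sk at 12.50, Tent5c, a poly(A) polymerase, at 12.30, Ube2l6, an enzyme of ISG15 conjugation, at 12.21 and Ucp2, a carrier of the inner mitochondrial membrane, at 11.99. Fth1, the ferritin heavy chain that stores iron, reached 11.76, and Cat, the catalase that breaks down hydrogen peroxide, reached 11.55.

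Erythroid genes formed the highest group beside platelets. Of 39 measured erythroid genes 38 lay above the 75th percentile of features and 16 in the top 1%, and their median level was 5.97. Fech, which inserts iron into haem, had a mean of 11.15, Slc25a37 (mitoferrin 1), which brings iron into mitochondria, 11.09, Bpgm, which makes the oxygen-affinity regulator of red cells, 11.09, and Epb41, a protein of the red cell membrane skeleton, 10.89. The beta globin Hbb-bt gave 9.33, 10.32 and 9.996 in untrained pools and 9.17, 9.71 and 10.18 in trained pools. The second beta globin, Hbb-bs, gave 3.21, 5.88 and 5.46 in untrained pools and 4.19, 4.86 and 4.62 in trained pools, with the lowest value in untrained pool 1. Both globin signals were measured after depletion, so they do not give the globin level of the blood. At the low end were Klf1, the erythroid transcription factor, at 2.49, and the embryonic globin Hbb-bh1 at 0.87, below the median feature.

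The start of Alas2 is shown because it was the highest member of the list and carries the letters AGATAA, a form of the motif bound by the erythroid factor Gata1, on the opposite strand, where they read TTATCT (capitals). The 300 bases, from 250 before to 50 after the annotated start, are those of RefSeq in GRCm38.p6 at chrX:150547167-150547466 on the plus strand.
Alas2: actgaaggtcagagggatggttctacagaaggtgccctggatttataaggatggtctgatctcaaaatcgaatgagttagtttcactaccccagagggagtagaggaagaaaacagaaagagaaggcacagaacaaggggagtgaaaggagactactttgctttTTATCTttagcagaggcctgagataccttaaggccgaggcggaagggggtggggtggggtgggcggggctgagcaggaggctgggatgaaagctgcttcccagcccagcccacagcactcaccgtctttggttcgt
Of 24 erythroid genes with a RefSeq promoter, 8 (33.3%) held AGATAA on either strand, against 11.4% of 27025 promoters of the same length, and TGATAA was in 5 (20.8%) against 9.26%. The motif CCACACCC, to which Klf1 binds, was in 1 of the 24 (4.17%) against 3.57%. These motifs were chosen after the list was known, the matches are descriptions, and they show no binding.

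Platelet transcripts were also high as a group. All 28 measured platelet genes lay above the median feature, 27 above the 75th percentile and 11 in the top 1%, with a median level of 6.36. The chemokine gene Ppbp gave 11.21, 11.30 and 11.43 in untrained and 11.28, 11.49 and 11.27 in trained pools, and these ranges overlapped. Gp9, a subunit of the von Willebrand factor receptor, had a mean of 10.01 ± 0.16 (SD, n = 6 pools), Tubb1, the tubulin of the platelet marginal band, 8.17 ± 0.23, and Pf4, platelet factor 4, 7.96 ± 0.20.

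Lymphocyte and myeloid lists had lower median levels than the erythroid and platelet lists. The 22 measured B cell genes were all above the 75th percentile with a median of 5.25, led by Igkc, the kappa light chain constant region, at 10.54, Ighm, the constant region of IgM, at 9.26, and the receptor chain Cd79a at 8.46. Of 25 T cell genes 22 were above that percentile with a median of 4.16, and members with high signal were the receptor constant regions Trbc2 and Trac at 7.67 and 7.29, and Cd3e, a CD3 chain of the receptor complex, at 7.25. Neutrophil genes had 20 of 25 members above it and a median of 4.43. S100a8 and S100a9, the calprotectin chains, reached 7.84 and 6.94, while Camp, a granule gene of neutrophil precursors in marrow, stood at 1.60, near the median feature. Lcn2, another granule gene of the list, was far higher than Camp in every pool, as given below.

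Monocyte genes had 20 of 22 members above the 75th percentile and a median of 3.81, with Ctss, a lysosomal protease, at 6.15 and Ly6c2, a marker of the classical subset, at 5.51. Natural killer and cytotoxic genes were lower, with 10 of 17 above it, a median of 2.89, and Ccl5, a chemokine, at 5.69. For plasma cells 7 of 11 genes were above it, among them Igha, the constant region of IgA, at 7.62. The defining plasma cell gene Sdc1 was at 2.00, below the 75th percentile. Eosinophil, basophil and mast cell genes had 5 of 16 and dendritic cell genes 4 of 14 members above the percentile, at medians of 1.82 and 2.02. Marrow progenitor genes had 4 of 18 with a median of 1.618, and Mpo, the peroxidase of granulocyte precursors, was at 2.51. Cell proliferation genes had 11 of 20 above the percentile, led by Ube2c at 8.94 and Mki67 at 6.43.

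Lists for tissues that could enter blood at collection were near the level of all features, except for skeletal muscle in untrained pool 1, described below. Above the 75th percentile lay 6 of 24 skeletal muscle genes (median 2.01; 45.8% of them by the mean of the untrained and 20.8% by that of the trained pools), 4 of 15 bone and cartilage genes (1.45), 3 of 19 brain genes (1.63), 1 of 14 genes of olfactory neurons and nasal glands (0.96), 1 of 16 airway genes (1.29), 1 of 14 skin genes (1.38) and 0 of 9 fat and 0 of 9 liver genes (1.38 and 1.49). The olfactory marker protein gene Omp was at 1.12 and albumin, Alb, at 1.13. Members well above that level included Col1a1, the collagen I chain of bone and connective tissue, at a mean of 5.24, and Pecam1, an adhesion gene of endothelium that platelets and leukocytes also express, at 6.43.

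**Figure D1:**
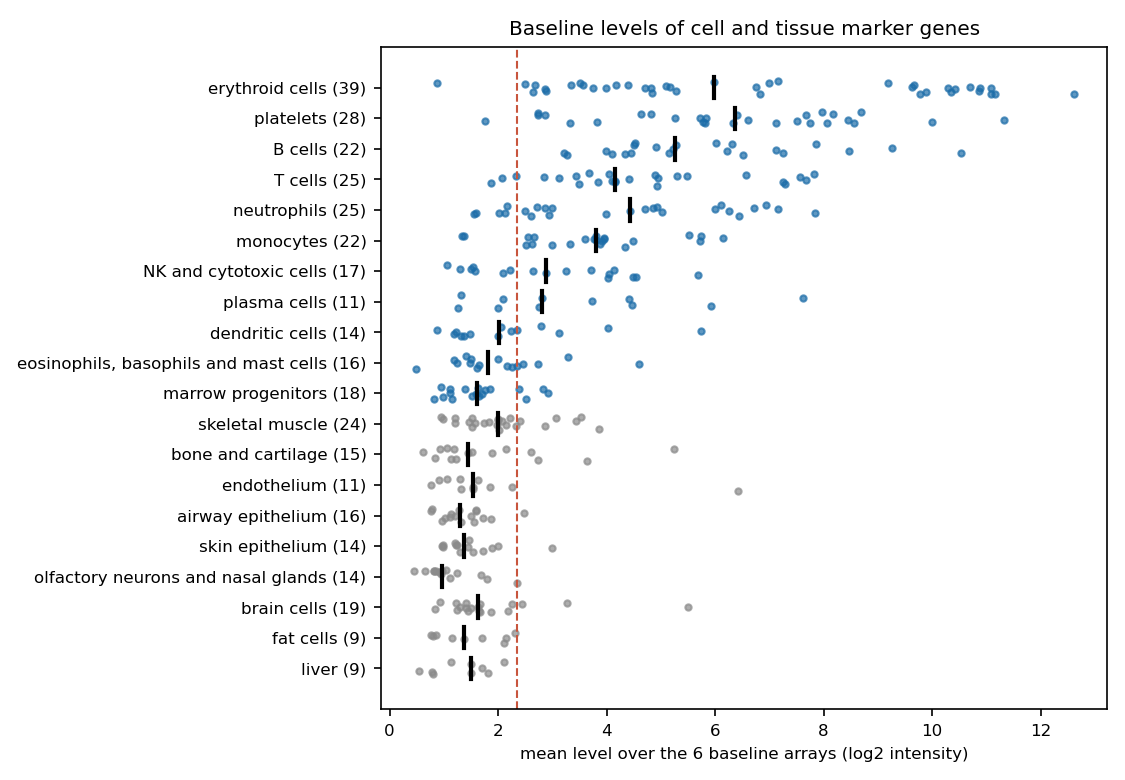
Mean log2 intensity over the 6 baseline arrays (horizontal axis) for each measured gene of 11 blood lists (blue points) and 9 lists of other tissues (grey points), with the number of genes in brackets. Black bars are list medians and the dashed line is the 75th percentile of all features at 2.35; the erythroid and platelet medians of 5.97 and 6.36 lie farthest to its right and the medians of all other tissues lie to its left.

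Small RNA features also reached high signals, although the array measures precursors and any transcript that shares their sequence. Above the 75th percentile lay 147 of 889 small nucleolar RNA (snoRNA) features (16.5%), 78 of 531 microRNA features (14.7%) and 246 of 3240 long non-coding RNAs (7.59%), compared with 28.7% of protein coding features. Snord32a, a box C/D snoRNA, was at 10.50 and the long non-coding RNA Malat1 at 6.62. Among microRNA precursors Mir692-1 was highest with 9.66, 9.63 and 8.98 in untrained and 9.58, 9.64 and 9.20 in trained pools, and Mir449b was second at 8.84 ± 0.07 (SD, n = 6 pools). Pool 3 of both groups was the lowest for Mir692-1. Its mature sequence in RefSeq, at chr17:6895259-6895279 on the minus strand of GRCm38.p6, is given with the seed (bases 2 to 8) in capitals.
Mir692-1: aUCUCUUUgagcgccucacuc
Mature sequences were matched by gene ID for 460 of the 531 microRNA features.

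The first comparison asked whether the groups already differed before training. No feature passed the threshold of 0.05 after Benjamini-Hochberg adjustment in limma with batch as a term (0 of 27381, 0%), and the smallest adjusted p was 0.215. At an unadjusted p under 0.05, 601 features (2.19%) had a higher and 550 (2.01%) a lower mean in the mice to be trained, 1151 in all, where chance gives 1369. The 3 arrays of one group lay wholly above the 3 of the other for 1336 features (4.88%) with trained higher and for 1628 (5.95%) with trained lower. The median difference over all features was -0.01 log2 and the median SE 0.157 log2. The difference between the groups also did not pass a test of change between batches (0 features, 0%, smallest adjusted p 0.605), with 930 features (3.40%) at an unadjusted p under 0.05.

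The genes with the smallest p-values were thus the extremes of a comparison without a significant gene, and they were low in signal. All 20 named genes, 10 in each direction, had non-overlapping groups and the same sign in both batches, with differences of 0.48 to 0.96 log2 in size and limma adjusted p-values of 0.544 to 0.999. They were picked by p-value from these same arrays, so the lack of overlap and the shared sign are no separate support. Over all features 4.88% did not overlap with trained higher and 5.95% with trained lower. Of the 20, 7 lay above the 75th percentile of features. Brk1, a subunit of the WAVE complex that starts branched actin filaments, gave 4.84, 4.85 and 4.03 in untrained pools and 4.02, 3.997 and 3.34 in trained pools. Trained pool 1 lay just below untrained pool 3, the groups did not overlap, and pool 3 was the lowest of each group. The difference was -0.78 log2 (SE 0.13, limma adjusted p = 0.544), at -0.83 in batch 1 and -0.69 in batch 2.

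Rhbdd2, a member of the rhomboid family of membrane proteins, gave 1.94, 2.13 and 2.15 in untrained and 3.22, 2.63 and 2.88 in trained pools. Its difference was 0.84 log2 (SE 0.16, limma adjusted p = 0.765), the highest values being those of the trained pools. Plagl2, a zinc finger transcription factor, differed by 0.96 log2 (SE 0.23) and Trav6d-4, a variable segment of the T cell receptor alpha chain, by 0.93 log2 (SE 0.22), each with a limma adjusted p of 0.999. Cdkn1c, an inhibitor of cyclin-dependent kinases, was at 1.20 to 1.49 in untrained and 1.87 to 2.03 in trained pools. Nfya, a subunit of the CCAAT-binding factor NF-Y, was the only one of the 10 genes with a positive difference to exceed a mean of 3, at 3.28 to 3.45 against 3.67 to 3.97.

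Genes with a negative difference included Cxcr1, a chemokine receptor of neutrophils, at 2.28, 2.56 and 2.47 in untrained and 1.89, 1.72 and 2.04 in trained pools. Its difference was -0.55 log2 (SE 0.13, limma adjusted p = 0.999). Rps27, a protein of the small ribosomal subunit, differed by -0.62 log2 (SE 0.15), Sephs2, which makes the selenium donor of selenoproteins, by -0.62 log2 (SE 0.15) and Agtrap, a protein bound to the angiotensin receptor, by -0.54 log2 (SE 0.12). A feature outside the naming rule, the small nuclear RNA Gm22576, was singled out after its values were seen because it had the smallest p of all. It gave 2.33, 2.46 and 2.38 in untrained and 3.44, 3.55 and 3.64 in trained pools, a gap of about 1 log2 between the groups, and a difference of 1.15 log2 (SE 0.16, limma adjusted p = 0.215).

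**Figure D2:**
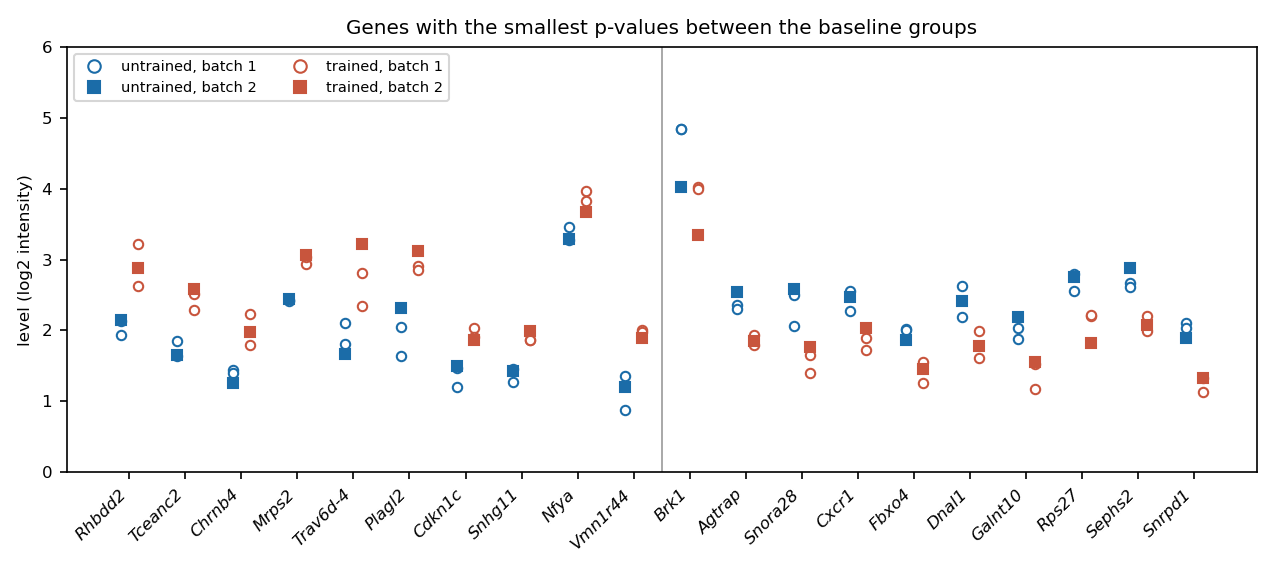
Log2 intensity (vertical axis) of the 20 named genes with the smallest p-values between the baseline groups in each of the 6 arrays, untrained in blue and trained in red, with open circles for batch 1 and filled squares for batch 2. The 10 genes left of the line had a positive difference and the 10 right of it a negative one. They were picked by p-value from these same arrays, the groups do not overlap for any of them, and no limma adjusted p is below 0.544. Over all features 4.88% did not overlap with trained higher and 5.95% with trained lower.

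A difference of at least 1 log2 was seen for 19 features, 17 of them at or above the median level, and none was significant. Stmn1, which destabilises microtubules, was at 3.30, 4.04 and 4.31 in untrained and 2.44, 3.15 and 2.91 in trained pools, and Ubl4a, a protein of the pathway for tail-anchored membrane proteins, at 2.01, 2.27 and 2.37 against 1.00, 0.62 and 1.18. For both genes every trained pool was below every untrained pool, as for 5.95% of all features. The differences were -1.05 (SE 0.37) and -1.28 log2 (SE 0.40), with limma adjusted p-values of 0.999. The same 19 held Myh4, Car3 and Gdpd3, whose differences rested on 1 pool described below.

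By cell type, most list medians lay close to the -0.01 log2 of all features, while those of erythroid and skeletal muscle genes, given further below, lay further off. No member of any of the 40 lists passed the adjusted threshold. The counts in brackets compare with 2.19% of all features in the positive and 2.01% in the negative direction. The median difference was 0.04 log2 for B cells (0 of 22 genes at an unadjusted p under 0.05), 0.05 for T cells (0 of 25), 0.02 for monocytes (2 of 22, both higher), 0.08 for natural killer and cytotoxic genes (1 of 17, higher), -0.04 for platelets (2 of 28, both lower) and -0.12 for neutrophils (2 of 25, both lower). The T cell and monocyte medians were 0.19 and 0.15 in batch 1 alone and -0.04 and -0.15 in batch 2 alone. Cx3cr1, a chemokine receptor of the patrolling monocyte subset, gave 3.53, 3.59 and 3.91 in untrained and 4.52, 4.06 and 4.13 in trained pools, a difference of 0.56 log2 (SE 0.19, limma adjusted p = 0.999). Prf1, the pore-forming protein of killer cells, gave 3.69, 3.63 and 3.94 against 4.40, 4.21 and 4.25, a difference of 0.54 log2 (SE 0.24, limma adjusted p = 0.999). For both genes every trained pool was above every untrained pool, as for 4.88% of all features.

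Erythroid genes had a median difference of -0.17 log2, with 6 of 39 positive and 2 at an unadjusted p under 0.05, Kel, a blood group antigen, at -0.52 log2 (SE 0.20) and Tspo2 at -0.51 log2 (SE 0.21). This median depended on untrained pool 1, in which 26 of the 39 genes had their highest value, and it was -0.00 without that pool. In trained pool 1, 18 of the 39 had their lowest value. Skeletal muscle genes, with a median of -0.40 log2, likewise moved to 0.02 without untrained pool 1.

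At an unadjusted p under 0.05, which 2.19% of all features passed with a positive and 2.01% with a negative difference, respiratory chain genes had 2 of 22 members with a positive and 1 with a negative difference, ribosomal protein genes 1 and 2 of 25, heat shock genes 1 and 2 of 17, and NF-kB pathway genes 1 and 0 of 23. For 5 of 17 heat shock genes every trained pool was below every untrained pool, as for 5.95% of all features, and for 1 it was above; their median difference was -0.09 log2, with -0.19 in batch 1 and -0.08 in batch 2. Cox4i1, a subunit of cytochrome c oxidase, differed by -0.56 log2 (SE 0.16) and Hspe1, the mitochondrial chaperonin partner, by -0.61 log2 (SE 0.16), each with a limma adjusted p of 0.999. Interferon-stimulated, MHC class II and immediate-early genes had median differences of -0.04, -0.03 and -0.02 log2. Glucocorticoid targets had a median of -0.16, which was -0.00 without untrained pool 3, with Il1r2, the decoy receptor of interleukin 1, at 3.09, 3.71 and 3.11 against 2.18, 3.14 and 2.73.

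The 7 genes the study followed did not differ significantly at baseline. Card6, Impdh2 and Dnase1l2 had been picked by the study from arrays of batch 1, so these values are no independent evidence of a direction. Card6, a caspase recruitment domain protein, gave 2.44, 2.56 and 2.79 in untrained and 2.60, 3.22 and 2.86 in trained pools, a difference of 0.29 log2 (SE 0.24). Impdh2, an enzyme of guanine nucleotide synthesis, gave 1.94, 0.82 and 1.21 against 1.89, 2.39 and 1.47, a difference of 0.60 log2 (SE 0.53). The untrained and trained pools overlapped for both. The spread of Impdh2 over the 6 pools, an SD of 0.57 log2, was more than that of Card6, at 0.28. Dnase1l2, a secreted nuclease, differed by -0.08 log2 (SE 0.15), Ikbkb, an NF-kB activating kinase, by -0.26 (SE 0.30), Nfkb2, an NF-kB subunit, by 0.26 (SE 0.15), Irf8, a transcription factor of myeloid and B cells, by -0.19 (SE 0.19) and the reference gene Ywhaz by -0.00 (SE 0.14), all with limma adjusted p-values of 0.999. The batches disagreed for Nfkb2, at 0.49 in batch 1 alone and -0.20 in batch 2 alone.

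The second question was how far pools varied at baseline. The SD of a feature over the 6 arrays had a median of 0.178 log2 over all features, 0.209 for those at or above the median level and 0.221 for the top 1%, and 75.9% of features had an SD under 0.25. It was 1 log2 or more for 16 features. Among features at or above the median level, protein coding genes had a median SD of 0.203, snoRNAs of 0.361 and variable segments of immunoglobulins and T cell receptors of 0.404. Of the 30 features with the largest SD, 19 were protein coding, 5 of these in the skeletal muscle list, and 7 were snoRNAs.

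Arrays of the same group were no closer to each other than arrays of different groups. Counted over features at or above the median level, the 2 pairs of the same group and batch differed by at least 1 log2 at 264 and 294 features. The 5 pairs of different groups within a batch differed at 139 to 287, the 4 pairs of one group across batches at 188 to 253 and the 4 pairs of different groups and batches at 194 to 306. The lowest count was between untrained pool 3 and trained pool 3 and the highest between untrained pool 3 and trained pool 1. In a principal component analysis the first axis carried 24.4% of the variance and set trained pool 1 (-31.8) apart, and the second carried 22.7% and set untrained pool 1 (35.1) apart.

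**Figure D3:**
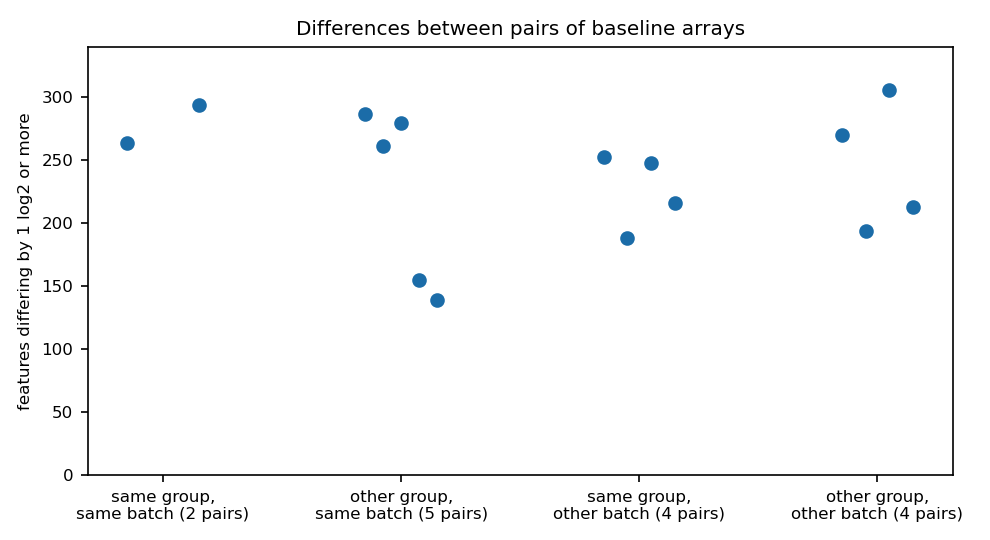
Number of features, of those at or above the median level, that differed by 1 log2 or more (vertical axis) for each of the 15 pairs of baseline arrays, 1 point a pair, arranged by shared group and shared batch. Pairs of the same group and batch lie at 264 and 294, inside the range of 139 to 306 over the other pairs.

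Untrained pool 1 stood apart by skeletal muscle transcripts. In it 24 of the 13691 features at or above the median level were at least 1 log2 above all 5 other arrays, 11 of them in the muscle list. Of the 24 measured muscle genes 19 had their highest value there. The share of all features with their highest value in this pool was not counted. Myh4, the myosin heavy chain of fast fibres, gave 5.30 in this pool and 1.29, 1.30, 1.81, 1.03 and 1.30 in the others. Acta1, skeletal muscle actin, gave 5.66 against 3.29, 3.49, 3.66, 3.77 and 3.26. Atp2a1, the calcium pump of the sarcoplasmic reticulum, gave 5.47 against 2.10 to 3.01. The giant sarcomere proteins Ttn and Neb gave 4.32 and 4.13 against 1.38 to 1.65 and 1.06 to 1.53, and Car3, a carbonic anhydrase of muscle, gave 4.63 against 1.19 to 1.89. The slow fibre genes Myh7 and Tnni1 were at 1.47 against 1.18 to 1.65 and at 1.26 against 1.41 to 1.94, whereas Mb, the myoglobin of oxidative fibres, was at 3.49 against 1.68 to 2.28 and Mybpc1, a slow-type myosin binding protein outside the list, at 2.55 against 1.07 to 1.52. Ckm, muscle creatine kinase, was at 3.20 against 2.19 to 3.05. Gdpd3, a phosphodiesterase gene outside the list, was at 5.31 against 1.39 to 2.03.

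The starts of Myh4 and Acta1 are shown because these genes were high together in this 1 pool, and both hold CAGCTG (capitals), a form of the E-box that MyoD family factors bind and that reads the same on both strands. They are RefSeq sequences in GRCm38.p6, chr11:67237562-67237861 on the plus strand for Myh4 and chr8:123894726-123895025 on the minus strand for Acta1.
Myh4: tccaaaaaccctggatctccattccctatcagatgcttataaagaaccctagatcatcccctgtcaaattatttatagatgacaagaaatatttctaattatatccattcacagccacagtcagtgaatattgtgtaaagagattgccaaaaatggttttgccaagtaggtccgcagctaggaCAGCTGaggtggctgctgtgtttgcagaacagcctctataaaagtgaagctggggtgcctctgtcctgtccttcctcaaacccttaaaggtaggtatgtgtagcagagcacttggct
Acta1: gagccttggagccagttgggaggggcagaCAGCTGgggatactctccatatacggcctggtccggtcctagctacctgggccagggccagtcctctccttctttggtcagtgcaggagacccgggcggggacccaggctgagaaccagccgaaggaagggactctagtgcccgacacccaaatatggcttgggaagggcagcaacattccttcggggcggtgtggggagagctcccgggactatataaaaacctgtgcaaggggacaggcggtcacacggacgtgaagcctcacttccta
Of 17 muscle genes with a RefSeq promoter 9 (52.9%) held CAGCTG, against 16.1% of 27025 promoters of the same length and 8 of 22 platelet genes (36.4%). A match is a description of the letters and shows no binding, and the motif was chosen with the muscle values known.

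The same pool had the highest value for 26 of 39 erythroid genes and the lowest for Hbb-bs, as given above. Kel was at 5.01 in it and at 3.98 to 4.52 in the other pools. Xist, the RNA that silences one X chromosome in females, was at 3.86 in this pool and at 5.19, 5.44, 5.17, 4.81 and 4.75 in the others. The Y-linked genes Uty and Ddx3y were at 2.13 and 1.86 in it, but their highest values, 2.37 and 2.42, were in trained pool 2. The labels name mice of both sexes and do not say how they were spread over the pools, and the part of sex in these values was not tested.

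Trained pool 1 was low in platelet, neutrophil and erythroid genes and in several snoRNAs. It had the lowest value for 11 of 28 platelet genes, 14 of 25 neutrophil genes and 18 of 39 erythroid genes, and the highest for 1, 4 and 0. The share over all features was not counted. Trained pool 3 was also low, with the lowest value for 9 of the 28 platelet genes. The mean deviation of neutrophil genes from their baseline means was -0.19 log2 in trained pool 1 and -0.16 in trained pool 3. Vwf, von Willebrand factor, gave 3.79 against 4.75 to 4.94 in the other pools, Tlr4, the receptor for bacterial lipopolysaccharide, 1.12 against 2.12 to 2.71, and Slfn4, a myeloid Schlafen gene, 2.69 against 3.69 to 4.49. By contrast, 9 of 25 T cell genes and 5 of 17 natural killer and cytotoxic genes had their highest value in trained pool 1, and 0 their lowest. Among the T cell genes Cd3e was at 8.10 against 6.92 to 7.30. Snord61, a box C/D snoRNA, was at 2.94 against 5.08, 6.07, 6.09, 5.41 and 6.15, and Snord110 at 4.48 against 5.69 to 7.12. Snora81, a box H/ACA snoRNA, was highest in this pool, at 4.88 against 2.22 to 3.77, so snoRNAs did not move as one group.

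Trained pool 2 was low for another set of snoRNAs and high for platelets. At least 0.5 log2 below all other arrays lay 52 of the 13691 features at or above the median level. Of these 52, 17 were snoRNAs, out of 253 snoRNA features at that level. Snord22 gave 5.39 against 7.50, 6.93, 7.68, 7.42 and 7.63, Snord33 6.40 against 7.38 to 8.44 and Snora34 1.56 against 2.93 to 4.90. Of 33 named Snora genes 18 had their lowest value in it. Platelet genes had 19 of 28 highest values in this pool, such as Pf4 at 8.22 against 7.75 to 8.15, a margin below the SD of 0.20. For these lowest and highest values the share over all features was not counted. Marchf7, a ubiquitin ligase, was at 4.57 against 2.68 to 3.40.

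The remaining pools stood apart in fewer features. At least 1 log2 above or below all others lay 4 and 1 features in untrained pool 2, 0 and 6 in untrained pool 3, and 1 and 3 in trained pool 3, compared with 24 and 2 in untrained pool 1, 8 and 8 in trained pool 1 and 5 and 9 in trained pool 2. Gm20830, a gene annotated on the Y chromosome, was at 2.00 in untrained pool 3 and at 3.93, 3.61, 4.28, 5.61 and 3.99 in the others. Tomm22, an import receptor of mitochondria, was at 2.98 against 4.02 to 4.65. Col1a1 was spread widely within both groups, at 5.003, 6.63 and 5.34 in untrained and 3.90, 4.55 and 6.02 in trained pools, and Col1a2, its partner chain, at 3.62, 4.30 and 3.77 against 2.91, 3.03 and 4.23, with the same pools high for both.

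**Figure D4:**
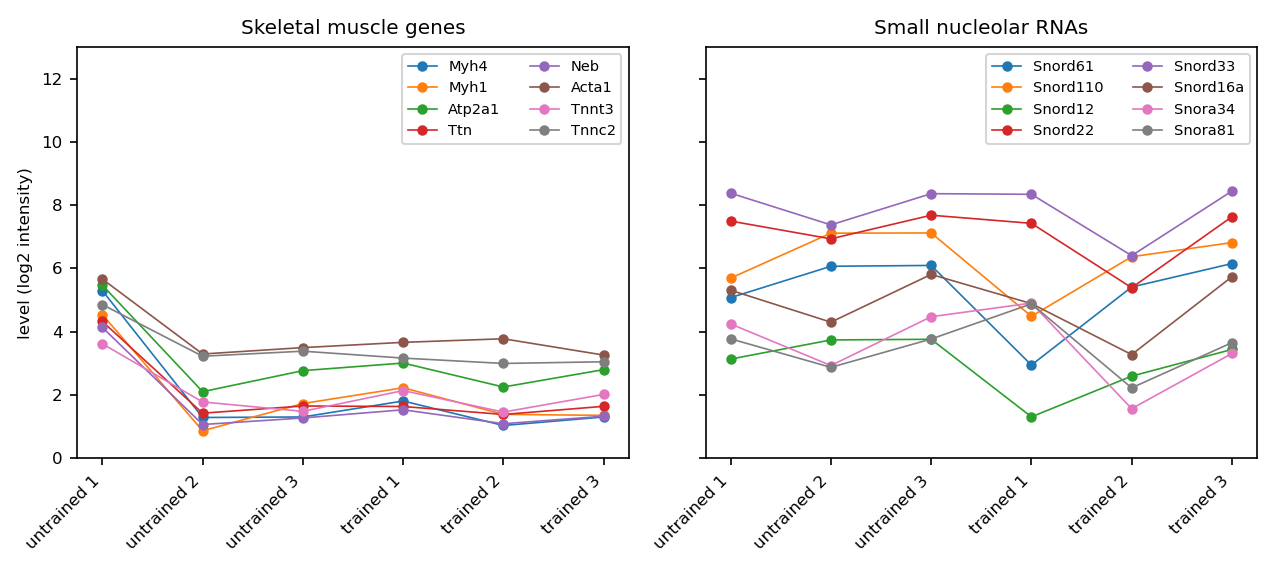
Log2 intensity (vertical axis) of 8 skeletal muscle genes (left) and 8 snoRNAs (right) in the 3 untrained and 3 trained baseline pools, 1 line a gene. The muscle genes peak in untrained pool 1, where Myh4 reached 5.30 against 1.03 to 1.81 elsewhere; Snord61 dips to 2.94 in trained pool 1 and Snord22 to 5.39 in trained pool 2.

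The third comparison set batch 2, the repeat with 1 pool a group, against batch 1 at baseline. Igha, kappa variable genes and a few neutrophil genes were among those with the smallest p-values and were lower in the repeat. Differences of Scgb1a1 and several snoRNAs were in the other direction. No feature passed after adjustment over all features in limma (0 of 27381, 0%, smallest adjusted p 0.0611), 497 (1.82%) were lower and 241 (0.880%) higher in batch 2 at an unadjusted p under 0.05, 738 in all. With the 6 baseline arrays fitted alone 8 features passed, among them Igha, Lcn2, Stfa2l1 and Scgb1a1. None passed in that fit when pool 1 or 2 of either group was left out. With only features at or above the median tested 4 passed, among them Igha. Both batch 2 arrays lay below all 4 batch 1 arrays for 1372 features (5.01%) and above them for 1047 (3.82%). Of the 497 lower features 306 were protein coding, 70 were variable segments and 69 pseudogenes, and of the 241 higher features 108 were protein coding and 66 snoRNAs.

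Igha gave 7.99 and 8.36 in untrained and 8.19 and 8.22 in trained pools of batch 1, and 6.55 and 6.40 in untrained and trained pool 3. Both repeat pools were far below the others, and the difference of -1.72 log2 (SE 0.18) was 3.28-fold, with a limma adjusted p of 0.0611. Jchain, the joining chain of secreted IgA and IgM, gave 4.41, 5.30, 4.66 and 5.11 in batch 1 and 3.56 and 3.72 in batch 2 (-1.23 log2, SE 0.27, limma adjusted p = 0.524). Other plasma cell genes moved less, Mzb1, a chaperone of antibody secretion, by -0.08 and Sdc1 by -0.25 log2, although all 11 genes of the list had a negative difference. Ighm differed by -0.09 log2 (SE 0.32) and Igkc by -0.57 (SE 0.25), and B cell genes had a median of -0.17, with 17 of 22 negative.

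Kappa variable segments (Igkv), which encode the antigen-binding part of kappa light chains, were the family with the lowest median. This family was picked after its values were seen and its members resemble each other in sequence, so that probes can be shared and the segments are not independent. Of 102 segments 93 had a negative difference, 57 had both repeat pools below all others (5.01% of all features) and 61 were lower at an unadjusted p under 0.05 (1.82% of all features), with a median of -0.65 log2 against -0.01 over all features. Igkv10-94 gave 6.51, 6.67, 6.52 and 6.50 in batch 1 and 5.10 and 5.14 in batch 2 (-1.43 log2, SE 0.15, limma adjusted p = 0.0611). Igkv17-127 gave 6.40, 6.26, 6.35 and 6.30 against 4.84 and 4.66 (-1.58 log2, SE 0.18, limma adjusted p = 0.0666). Pools agreed within each batch to 0.2 log2 and the batches were apart by more than 1. Heavy chain variable segments (Ighv) had a median of -0.17 log2, with 77 of 94 negative and 5 lower at an unadjusted p under 0.05, and T cell receptor variable segments a median of -0.03, with 47 of 82 negative.

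Some neutrophil genes followed the batch and others did not. Stfa2l1, a stefin protease inhibitor of neutrophils, gave 5.26, 5.30, 5.37 and 5.36 in batch 1 and 4.10 and 4.13 in batch 2 (-1.21 log2, SE 0.15, limma adjusted p = 0.0737), and Lcn2, an iron-sequestering granule protein, 7.50, 7.60, 7.65 and 7.52 against 6.30 and 6.38 (-1.23 log2, SE 0.20, limma adjusted p = 0.197). Retnlg differed by -0.89 log2 (SE 0.22). S100a8 differed by -0.09 (SE 0.17), and the median of all 25 neutrophil genes was -0.11. Ccl5 differed by -0.72 log2 (SE 0.18), Trbc1 by -0.84 (SE 0.27) and Clec4a1, a C-type lectin of myeloid cells, by -0.88 (SE 0.13).

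Higher in the repeat were some snoRNAs and a macrophage gene, none with an adjusted p below 0.05. Over all 889 snoRNA features the median difference was 0.04 log2, 320 differences were negative, and an unadjusted p under 0.05 was reached by 66 in the positive and 6 in the negative direction. The named genes, a group picked after values were seen, lay further from 0. Of 71 named Snord genes 27 were higher at an unadjusted p under 0.05 (0.880% of all features) and 2 lower, with a median of 0.40 log2, and of 33 Snora genes 6 were higher and 0 lower, with a median of 0.22. Snord65 gave 3.45, 3.85, 3.63 and 3.68 in batch 1 and 4.58 and 4.39 in batch 2 (0.84 log2, SE 0.16, limma adjusted p = 0.349). Gpnmb, a glycoprotein of macrophages, gave 1.43, 1.39, 1.51 and 1.56 against 2.33 and 2.47 (0.93 log2, SE 0.19, limma adjusted p = 0.429), and Scgb1a1, the secretoglobin of airway club cells, 0.26, 0.35, 0.41 and 0.60 against 2.36 and 2.18 (1.87 log2, SE 0.72, an adjusted limma p of 1). The SE of Scgb1a1 included the spread of the pools after training. With the 6 baseline arrays fitted alone its SE was 0.15 (limma adjusted p = 0.0226). Scgb1a1 was below the median feature in batch 1 and above it in the repeat. Of 16 airway genes 7 had both repeat pools above all others (3.82% of all features), and of 22 respiratory chain genes 6 had both below (5.01%), with 20 negative and a median of -0.20 log2. Mice, time and array run changed together between the batches, so their parts cannot be told apart.

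**Figure D5:**
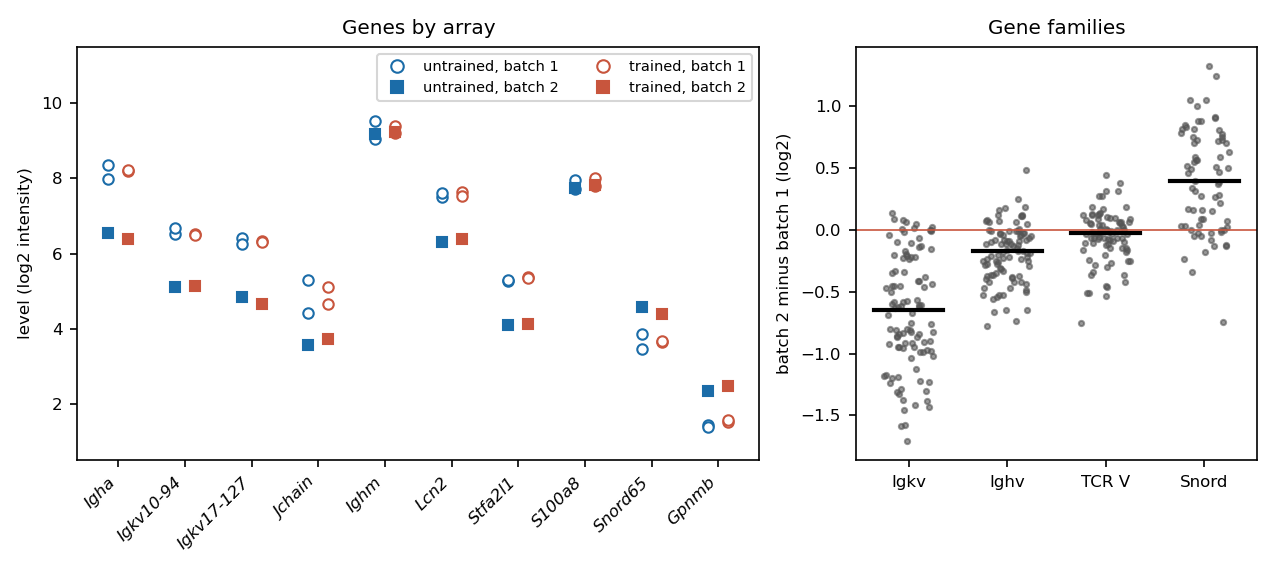
Left, log2 intensity (vertical axis) of 10 genes in each baseline array, untrained in blue and trained in red, with open circles for batch 1 and filled squares for batch 2. Right, batch 2 minus batch 1 in log2 (vertical axis) for each Igkv, Ighv, T cell receptor V (TCR V) and Snord gene, with black bars at the medians of -0.65, -0.17, -0.03 and 0.40; Igha lies at 6.40 to 6.55 in batch 2 and at 7.99 to 8.36 in batch 1.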

How the data were processed

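Blood RNA from the 6 baseline pools, 3 untrained and 3 trained, was compared on Affymetrix Mouse Gene 2.0 ST arrays. The authors deposited log2 intensities made from the scans by RMA, which corrects background, applies quantile normalization and summarises the probes of each Entrez gene; the submitters' processing notes name affy 1.62.0 and R 3.6.0. The sources used here do not say whether the batches had been adjusted in the deposited values. No filter, detection call or change of scale was applied, so features near background stayed in the tests. The platform table named 26794 of 27381 features, a RefSeq table (GRCm38.p6) 564 more by Entrez number, and 23 stayed unnamed. Gene types and sequences are also from RefSeq.

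The group difference was fitted with limma 3.58.1 (lmFit, eBayes) in R 4.3.3 on all 12 arrays as 4 group means plus batch, with 7 residual degrees of freedom, and the batch difference on 8 means of group by batch, with 4. Each two-sided test used a threshold of 0.05 after the Benjamini-Hochberg method was applied to the p-values of all features. A list was described by its counts and median. Both steps were tested on simulated data.

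The genes named are a part of those given by a rule: the 30 features of highest mean and the 10 highest of 3 RNA types, the 10 of smallest p in each direction for the groups and 5 for the batches (with a proper symbol and at or above the median level), up to 6 per list, those with the largest SD or farthest from the other 5 arrays, sex-linked genes, globins and the 7 genes the study followed. Within lists, further members are named as examples. The members, lists and rule were chosen with earlier results of these data known, and the Igkv, Ighv, Snord, Snora, Y-linked and motif groups after values were seen. The alternatives were no batch term, a replicate block, only the baseline arrays, single batches, only features with at least the median signal, quantile normalization, centred arrays, limma's trend option and each array left out.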

Additional observations from a re-analysis of the deposited data

Results flagged for a closer look

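A score, the mean deviation of a list's genes from their baseline means, was computed in each of the 6 arrays for 51 lists and families, and an array was set apart by Dixon's test when its gap to the nearest array as a share of the range exceeded the 95% critical value for 6 samples. This happened for 6 lists. The nominal rate is about 1 in 20 for a single list. The lists share arrays and some genes and were chosen with earlier results known, so that rate does not give the number to expect by chance. The skeletal muscle score of untrained pool 1 was 1.10 log2 (ratio 0.765), against -0.37 to -0.03 in the other arrays. In the same pool interferon-stimulated genes scored 0.109 (0.653). Of these 29 genes 9 had their highest value in it, among them Rsad2 at 10.99, and 6 their lowest. Trained pool 2 scored 0.242 for purine synthesis genes (0.629) and 0.263 for the sex-linked list (0.693), and trained pool 1 scored 0.116 for T cell receptor variable segments (0.656). Genes of the Y chromosome scored -0.266 in untrained pool 3 (0.666). No explanation of these values was tested.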

How the results depend on the processing

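The count of genes between the groups after adjustment stayed at 0 under each of the 14 alternatives with a test, leaving out each array included (0 to 0). At an unadjusted p under 0.05 it was 1151 and became 512 with only features at or above the median (fewer genes tested), 1414 without the batch term, 1194 with a replicate block and 1075 to 1402 with an array left out. Deviations from group means did not correlate between arrays of one replicate number (r of 0.05, 0.05 and -0.05 for numbers 1 to 3). The replicate block changed no call. The check cannot exclude a pairing, since it also gave no correlation for number 3, whose arrays shared batch 2. The paper describes trained and control mice as same-sex littermate pairs, and whether the pools kept the pairs is not stated. For the batch comparison the adjusted count of 0 stayed at 0 with quantile normalization. It became 8 with the 6 baseline arrays alone (Scgb1a1, Igha, Lcn2, Stfa2l1 and 4 Igkv segments). With features at or above the median it became 4 (Igha, Igkv10-94, Igkv17-127 and Igkv12-44). Arrays were left out of the fit of the baseline arrays alone, whose count of 8 fell to 0 without pool 1 or 2 of either group. The 8 calls thus depended on each of these arrays. Without a pool 3 only 1 array of batch 2 remained, so no count is given. The number of Igkv segments lower in batch 2 was 49 to 62 over the alternatives. The median Igkv difference of -0.65 log2 was less stable. It moved in 3 of 9 alternatives by more than the SD of the Igkv mean over the 4 baseline arrays of batch 1, and by less in 6. The median feature SD of 0.178 was 0.207 for features at or above the median of all 12 arrays (0.209 with the median of the 6). Differences near 0 turned sign for Dnase1l2 (0.0346 in batch 1 alone, -0.174 to 0.0537 with an array left out, the highest without untrained pool 3) and Ywhaz (0.11 in batch 2 alone, 0.00775 after quantile normalization, -0.0823 to 0.119 with an array left out, the highest without untrained pool 1, and 0.09 without trained pool 1). The Nfkb2 difference of 0.26 was not near 0 and also turned sign, at 0.49 in batch 1 alone and -0.20 in batch 2 alone. The cause of these changes was not tested. List medians of the group difference moved by less than the spread of the arrays in 518 of 570 values and by more in 52. Among these were monocytes (0.15 in batch 1 alone, -0.15 in batch 2 alone), T cells (0.19 in batch 1 alone), heat shock genes (-0.19 in batch 1 alone), glucocorticoid targets (-0.00 without untrained pool 3), NF-kB pathway genes (0.21 without untrained pool 3, -0.01 without trained pool 3) and erythroid genes (-0.00 without untrained pool 1). Skeletal muscle genes without untrained pool 1 counted among the 518, although their median changed as given above, since that pool also widened the spread used as the limit. Signal near the median feature limits what the dim genes can show, and 3 pools a group limit the rest.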
